A study of Triticum aestivum with 13 samples.

Results

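PRK, FBP and rbcl are names of Calvin cycle genes. Of the 61179 probe sets tested on a wheat array, 13 with these names are described here. A further 18 probe sets named rbcl were not among them. A probe set is a group of short probes that together read a transcript. The members were taken from a list of probe set names whose rule used no measured value, although earlier results of these data were known when the list was made, and comprised 1 probe set of PRK, 2 of FBP and 10 of rbcl. None of the 13 passed the test in any comparison between wheat lines, in which 0.00817% to 2.07% of all probe sets passed. At these shares the count does not set the members apart from the array. With other settings at most 3 passed in TugelaDn1 against TugelaDn5, at shares of 3.69% and 6.34% of the probe sets tested. The brighter of the PRK and FBP probe sets had their highest mean in the line TugelaDn1. The brightest rbcl probe sets had nearly the same signal in all 4 lines. That signal was at the top of the array's range, and whether it still follows transcript amount there was not tested. The highest mean in TugelaDn1 was not particular to these genes, since 4 of 5 probe sets of the leaf markers PsbO, PsbP and petC shared it.

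The Calvin cycle is the series of chloroplast reactions that fixes carbon dioxide into sugar. Phosphoribulokinase (PRK) makes ribulose 1,5-bisphosphate, the acceptor of carbon dioxide, from ribulose 5-phosphate and ATP, and ribulose-1,5-bisphosphate carboxylase/oxygenase (Rubisco) adds carbon dioxide to that acceptor. Fructose-1,6-bisphosphatase (FBP) removes a phosphate from fructose 1,6-bisphosphate. The chloroplast form of this enzyme acts in the regeneration of the acceptor, and a cytosolic form acts in sucrose synthesis. In plants PRK and FBPase are encoded in the nucleus, whereas rbcL, the large subunit of Rubisco, is encoded in the plastid genome.

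RNA was taken from leaves of 4 near-isogenic lines of bread wheat, all infested with the Russian wheat aphid (Diuraphis noxia) biotype SA1. Each young plant received 10 aphids, and after 48 h every leaf other than the first was collected. Tugela (genotype Dn0) was labelled as susceptible. TugelaDn1 (genotype Dn1) was labelled as resistant through antibiosis, TugelaDn2 (genotype Dn2) through tolerance, and TugelaDn5 (genotype Dn5) through antibiosis and antixenosis. The aphid was given as virulent on Tugela and as non-virulent on the 3 resistant lines. Each line had 3 biological repeats, and repeat 3 of TugelaDn5 was read on 2 arrays that were averaged, which gave 12 repeats from 13 arrays. No uninfested plants were analysed here, so the values compare infested lines and hold no response to the aphid itself. One free-text label of the TugelaDn2 and TugelaDn5 samples named TugelaDn1, and the sample titles and genotypes were followed.

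Levels are log2 intensities, with intensities under 16 set to 16, so that 4 is the lowest possible value. The 2% trimmed mean was 500.1 on every array, the mean without trimming lay between 863 and 947, and 19.3% to 21.4% of probe sets lay under the floor. Of 5 probe sets of the photosystem II proteins PsbO and PsbP and the Rieske protein petC, leaf markers, 4 were above the median level, with means between 13.8 and 16.3, and the other, of petC, had a mean of 4.55. Of 17 probe sets of seed storage proteins, 13 had at least 1 repeat at the floor, and 3 were above the median level, among them a probe set of an avenin-like protein with a mean of 13.15, near the 13.8 of the lower PsbP probe set. The signal comes from whole leaves, in which fewer cells of a type and less RNA per cell cannot be told apart.

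The names of the members came from a probe annotation of the platform and from a RefSeq gene table. PRK was the table's LOC543283, FBP carried its own symbol, and both lay on nuclear chromosomes of that table. The name rbcl was a synonym of a single gene, LOC100049018, which the table placed on a nuclear chromosome of the D genome. The table held 0 genes on the plastid genome. Whether the rbcl probe sets read the plastid transcript or a nuclear copy therefore could not be settled here, and the comparison of PRK and FBP with rbcl is a comparison of probe sets, not a settled comparison of nuclear with plastid transcripts. The probe sets whose names end in _x_at or _s_at can also bind transcripts other than the named one, and this holds for 4 of the rbcl members. TaAffx.128414.15.S1_at and TaAffx.128414.15.S1_x_at were designed from the same sequence.

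The signal of the 13 members covered most of the range of the array. A probe set is called bright here where its mean over the 12 repeats exceeded 6.17, the median of all probe sets tested, and 10 members were bright and 3 dim. In the order of mean signal, 2 rbcl probe sets held ranks 2 and 3 of all 61179, PRK held rank 324, the brighter FBP probe set rank 4023, and the dimmest rbcl probe set rank 59240. Signals of different probe sets depend on how well their probes bind, so these ranks do not order the amounts of transcript. The members just inside and just outside the limit were the second FBP probe set, with a mean of 6.21, and TaAffx.128414.15.S1_x_at, with a mean of 4.95.

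**Figure D1:**
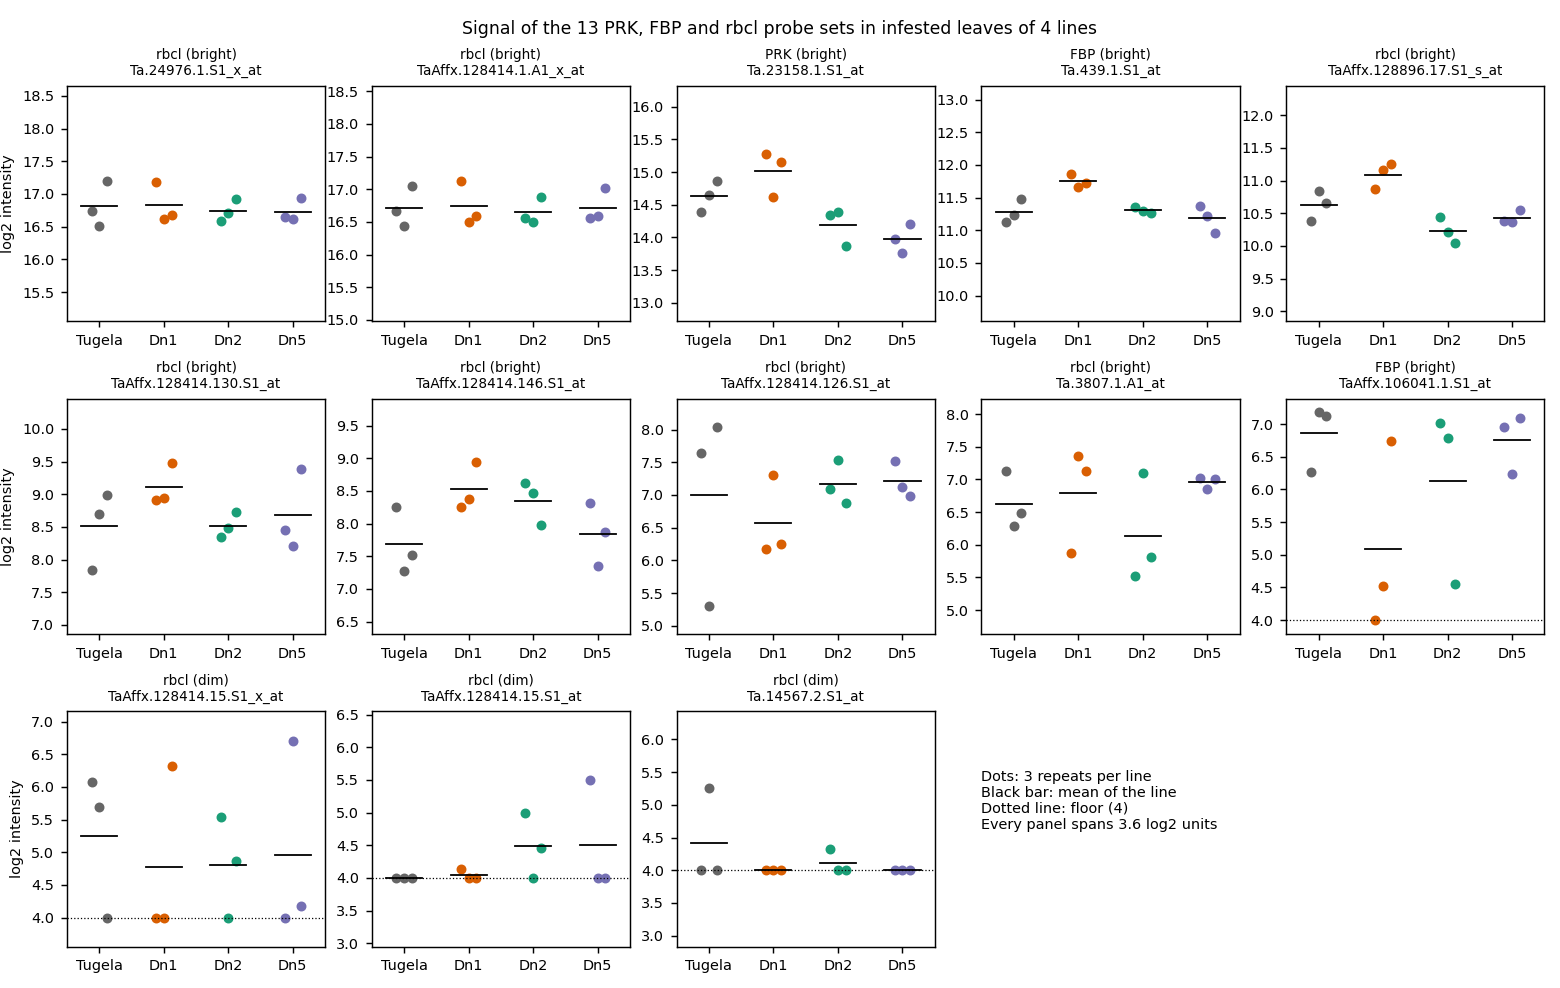
Log2 intensity of the 13 probe sets in the 4 infested lines, in order of mean signal, each panel with its own range of equal span. Dots are the 3 repeats of a line, black bars their means, and the dotted line is the floor of 4. PRK (Ta.23158.1.S1_at) and FBP (Ta.439.1.S1_at) lay highest in TugelaDn1 by mean, and the first 2 rbcl panels show overlapping lines.

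PRK was read by Ta.23158.1.S1_at. Its log2 levels in repeats 1, 2 and 3 were 14.39, 14.64 and 14.86 in Tugela and 15.28, 14.62 and 15.16 in TugelaDn1. They were 14.34, 14.38 and 13.86 in TugelaDn2 and 13.97, 13.76 and 14.21 in TugelaDn5. The order of the means was therefore TugelaDn1 (15.02 ± 0.35, SD, n = 3), Tugela (14.63 ± 0.24), TugelaDn2 (14.20 ± 0.29) and TugelaDn5 (13.98 ± 0.22). The repeats of TugelaDn1 overlapped those of Tugela, and the repeats of TugelaDn2 overlapped those of TugelaDn5. Every repeat of TugelaDn1 exceeded every repeat of TugelaDn2 and of TugelaDn5. Every repeat of Tugela also exceeded those of TugelaDn2 and TugelaDn5, the nearest pair, Tugela repeat 1 and TugelaDn2 repeat 2, being 14.39 against 14.38. Within Tugela, TugelaDn1 and TugelaDn5, PRK was highest in the repeat with the highest untrimmed mean intensity of its line. Within TugelaDn2 it was lowest in that repeat, and the part of this in the result was not tested.

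The difference in PRK between the extremes, TugelaDn1 and TugelaDn5, was 1.04 on the log2 scale (SE 0.23, 95% confidence interval 0.51 to 1.57), which is 2.05-fold. Its limma p was 0.0015 before and 0.064 after Benjamini-Hochberg adjustment over all probe sets, so it did not pass the threshold of 0.05. Without repeat 2 of TugelaDn1, the lowest of its line, the difference was 1.24 and passed with adjusted p = 0.041, and over all 22 alternatives its adjusted p ranged from 0.0054 to 0.19. TugelaDn1 exceeded TugelaDn2 by 0.82 (1.77-fold, adjusted p = 0.31). Against Tugela, the differences were 0.39 in TugelaDn1 (adjusted p = 0.78), -0.43 in TugelaDn2 (adjusted p = 0.69) and -0.65 in TugelaDn5 (adjusted p = 0.25). The neighbours in the order thus did not differ by the test, and the limma F test among the 4 lines gave adjusted p = 0.15. With quantile normalization, the differences of PRK from Tugela were 0.32 in TugelaDn1, -0.38 in TugelaDn2 and -0.59 in TugelaDn5.

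FBP was read by 2 probe sets of unlike signal. The brighter, Ta.439.1.S1_at, had log2 levels of 11.13, 11.23 and 11.48 in Tugela and 11.86, 11.66 and 11.72 in TugelaDn1. In TugelaDn2 the levels were 11.36, 11.29 and 11.27, and in TugelaDn5 they were 11.37, 11.21 and 10.96. All 3 repeats of TugelaDn1 thus lay above all 9 repeats of the other lines, whose own repeats overlapped each other. TugelaDn1 exceeded Tugela by 0.47 (1.38-fold, SE 0.15, limma adjusted p = 0.57), TugelaDn2 by 0.44 (adjusted p = 0.42) and TugelaDn5 by 0.57 (1.48-fold, 95% confidence interval 0.23 to 0.91, adjusted p = 0.11). None passed the threshold, and the F test among the lines gave adjusted p = 0.24. TugelaDn2 and TugelaDn5 differed from Tugela by 0.03 and -0.10.

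The second FBP probe set, TaAffx.106041.1.S1_at, had its lowest mean in TugelaDn1, the line in which the brighter one had its highest. Its log2 levels were 6.27, 7.18 and 7.12 in Tugela, 4, 4.52 and 6.74 in TugelaDn1, 7.02, 6.79 and 4.55 in TugelaDn2, and 6.95, 6.24 and 7.09 in TugelaDn5. In TugelaDn1, 1 repeat was at the floor and another reached the level of the other lines. The difference from Tugela was -1.77 (95% confidence interval -3.56 to 0.02, limma adjusted p = 0.70), opposite in sign to that of the brighter probe set, and neither was past the threshold. Its size depended on the floor and on single repeats, at -0.61 with a floor of 64, -0.10 with the highest floor tried, and -2.60 to -1.23 when each repeat was left out, the extremes being without TugelaDn1 repeat 3 and without TugelaDn1 repeat 1. The pooled SD between repeats was 1.05 for this probe set and 0.15 for the brighter one.

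The 2 brightest rbcl probe sets, Ta.24976.1.S1_x_at and TaAffx.128414.1.A1_x_at, were among the 4 brightest of all tested probe sets on each of the 13 arrays. Their intensities ran from 88562 to 150718. Whether signals this high still follow the amount of transcript was not tested. Ta.24976.1.S1_x_at had log2 levels of 16.75, 16.51 and 17.20 in Tugela and 17.19, 16.62 and 16.67 in TugelaDn1. Its levels were 16.58, 16.70 and 16.92 in TugelaDn2 and 16.64, 16.62 and 16.94 in TugelaDn5. Each line therefore overlapped every other line, and the line means lay within 0.10 of each other. TaAffx.128414.1.A1_x_at lay between 16.43 and 17.05 in Tugela, 16.50 and 17.13 in TugelaDn1, 16.50 and 16.88 in TugelaDn2, and 16.56 and 17.01 in TugelaDn5. The 2 probe sets followed each other, with a difference within a repeat of -0.08 to 0.20 (median 0.08).

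Over the 6 pairs of lines the limma adjusted p of these 2 probe sets lay between 0.92 and 1. The 95% confidence interval of Ta.24976.1.S1_x_at in TugelaDn5 against Tugela ran from -0.59 to 0.42, so a difference anywhere in that range remained possible with 3 repeats a line. The levels of Ta.24976.1.S1_x_at were highest in Tugela repeat 3 and TugelaDn1 repeat 1. The arrays of these repeats also had the highest untrimmed mean intensities, 939.8 and 946.7, against 863 to 908 on the other 11 arrays, and the part of this in the result was not tested.

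The third rbcl member by signal, TaAffx.128896.17.S1_s_at, differed between lines more than the 2 brightest ones. Its log2 levels were 10.38, 10.84 and 10.66 in Tugela and 10.87, 11.16 and 11.25 in TugelaDn1. The levels were 10.44, 10.21 and 10.05 in TugelaDn2 and 10.38, 10.36 and 10.54 in TugelaDn5. Every repeat of TugelaDn1 was above every repeat of the other 3 lines, which overlapped each other. TugelaDn1 exceeded TugelaDn2 by 0.86 (1.81-fold, 95% confidence interval 0.47 to 1.25, limma adjusted p = 0.16), TugelaDn5 by 0.66 (adjusted p = 0.11) and Tugela by 0.47 (adjusted p = 0.63). The F test among the lines gave adjusted p = 0.12, the lowest of the 13 members.

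The other 4 bright rbcl members varied more between repeats. TaAffx.128414.130.S1_at had log2 levels of 7.85 to 8.99 in Tugela, 8.91 to 9.48 in TugelaDn1, 8.35 to 8.73 in TugelaDn2 and 8.21 to 9.39 in TugelaDn5. TaAffx.128414.146.S1_at had levels of 7.28 to 8.25 in Tugela, 8.25 to 8.94 in TugelaDn1, 7.97 to 8.62 in TugelaDn2 and 7.35 to 8.32 in TugelaDn5. The repeats of TugelaDn1 lay above those of TugelaDn2 in the first of these and just above those of Tugela in the second, where the difference was 0.84 (limma adjusted p = 0.66). The 2 arrays of TugelaDn5 repeat 3 differed by 1.09 for TaAffx.128414.146.S1_at, which is more than that difference between lines. TaAffx.128414.126.S1_at ranged from 5.31 to 8.04 within Tugela alone, and Ta.3807.1.A1_at from 5.52 to 7.09 within TugelaDn2 alone, and both overlapped across all lines.

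The 3 dim rbcl members carried little measurement. Ta.14567.2.S1_at was at the floor in 10 of 12 repeats, TaAffx.128414.15.S1_at in 7 and TaAffx.128414.15.S1_x_at in 5. Their highest values were 5.26, 5.50 and 6.71, and values at the floor have no order, so no difference between lines was read from them. The same-sequence pair TaAffx.128414.15.S1_at and TaAffx.128414.15.S1_x_at had means of 4.26 and 4.95.

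None of the 13 members was called in any of the 6 comparisons, where a call is a limma adjusted p under 0.05. The share called among all probe sets tested was 0.00817% for TugelaDn1 against Tugela, 0.0376% for TugelaDn2 against Tugela and 2.07% for TugelaDn5 against Tugela. It was 0.0736% for TugelaDn1 against TugelaDn2, 1.89% for TugelaDn1 against TugelaDn5 and 1.29% for TugelaDn2 against TugelaDn5. The F test among the 4 lines called 1.76% of all probe sets and again none of the members. At these shares fewer than 1 call would fall among 13 probe sets, so a count of 0 does not set the members apart from the rest of the array.

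At an unadjusted limma p under 0.05, 3 members passed in TugelaDn1 against Tugela (Ta.439.1.S1_at, TaAffx.128414.146.S1_at and TaAffx.128896.17.S1_s_at), against 7.23% of all probe sets. In TugelaDn1 against TugelaDn2 (background 9%) and in TugelaDn1 against TugelaDn5 (background 13.3%) the same 3 members passed, PRK, Ta.439.1.S1_at and TaAffx.128896.17.S1_s_at, all higher in TugelaDn1. In TugelaDn5 against Tugela 1 member passed, PRK (background 13.1%). None passed in TugelaDn2 against Tugela (background 8.23%) or in TugelaDn2 against TugelaDn5 (background 10.8%). The F test had 3 members at this limit (background 13.5%), again PRK, Ta.439.1.S1_at and TaAffx.128896.17.S1_s_at. With another variance model of limma, in which the prior follows the level and is robust to outliers, the same 3 probe sets were called in TugelaDn1 against TugelaDn5, with adjusted p between 0.0054 and 0.023, and that model called 3.69% of all probe sets there against 1.89% in the model used elsewhere. PRK and Ta.439.1.S1_at were also called there with a floor of 64 (adjusted p = 0.046 and 0.040), which called 3.2% of all probe sets.

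**Figure D2:**
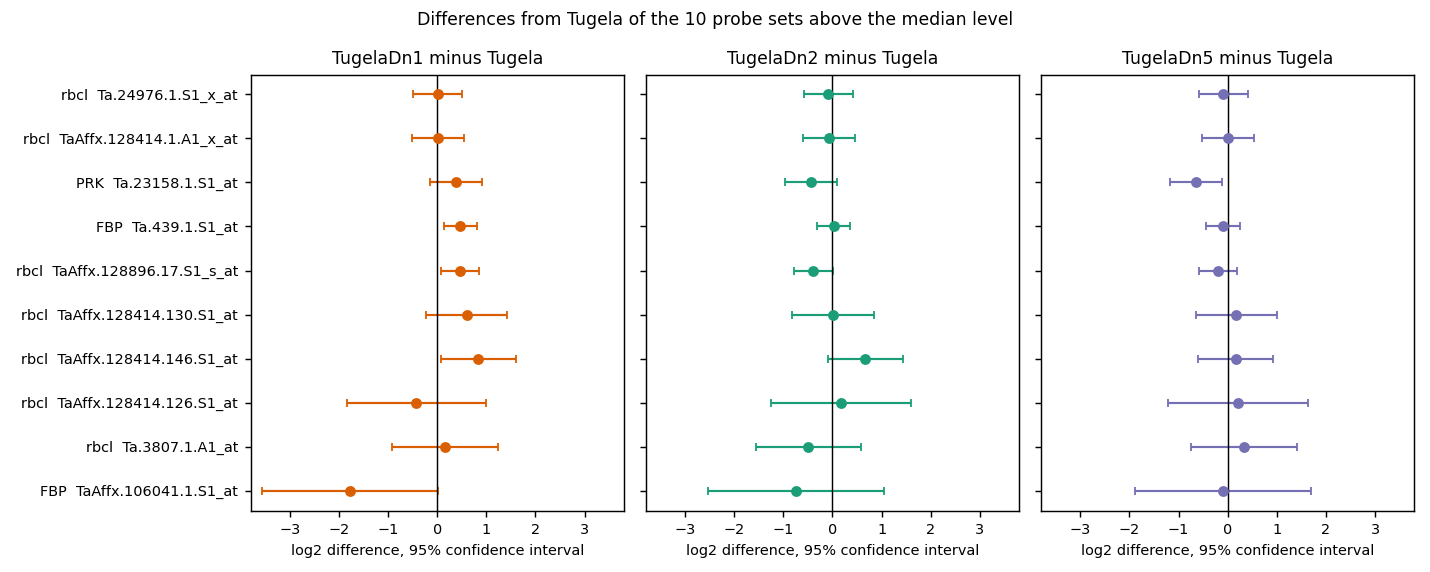
Log2 difference of each resistant line from Tugela for the 10 bright probe sets, with 95% confidence intervals from the limma fit, not adjusted for the number of probe sets. The intervals of the 2 brightest rbcl probe sets include 0 in all 3 lines, and that of PRK in TugelaDn5 runs from -1.18 to -0.12.

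Lines whose repeats do not overlap are commoner than calls. In TugelaDn1 against Tugela, 3 of the 13 members did not overlap, against 10.7% of all probe sets, and all 3 were higher in TugelaDn1. The count was 1 in TugelaDn2 against Tugela (background 12.8%) and 1 in TugelaDn5 against Tugela (background 18.1%), PRK in both cases and lower in the resistant line. It was 4 in TugelaDn1 against TugelaDn2 (background 13%), with PRK, Ta.439.1.S1_at, TaAffx.128414.130.S1_at and TaAffx.128896.17.S1_s_at higher in TugelaDn1. It was 3 in TugelaDn1 against TugelaDn5 (background 17.8%) and 0 in TugelaDn2 against TugelaDn5 (background 16.2%). These comparisons share lines, so the counts are not independent of each other.

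PRK and FBP were then set against rbcl within each repeat, as the log2 level of the nuclear gene minus that of Ta.24976.1.S1_x_at, less the Tugela mean. For PRK this was -0.17 to 0.32 in Tugela, 0.19 to 0.68 in TugelaDn1 (mean 0.38), -0.87 to -0.05 in TugelaDn2 (mean -0.35) and -0.67 to -0.48 in TugelaDn5 (mean -0.56). The repeats of TugelaDn5 thus lay below all those of Tugela and TugelaDn1, and TugelaDn1 overlapped Tugela. For FBP, read by Ta.439.1.S1_at, it was -0.18 to 0.26 in Tugela, 0.21 to 0.59 in TugelaDn1 (mean 0.46), -0.11 to 0.32 in TugelaDn2 (mean 0.11) and -0.43 to 0.27 in TugelaDn5 (mean -0.01). Here the repeats of all lines overlapped those of Tugela. Without TugelaDn2 repeat 3 the PRK mean of TugelaDn2 was -0.093, and without TugelaDn5 repeat 3 the FBP mean of TugelaDn5 was 0.20. These values also rest on the signal of Ta.24976.1.S1_x_at, and whether it follows transcript amount at its high level was not tested.

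**Figure D3:**
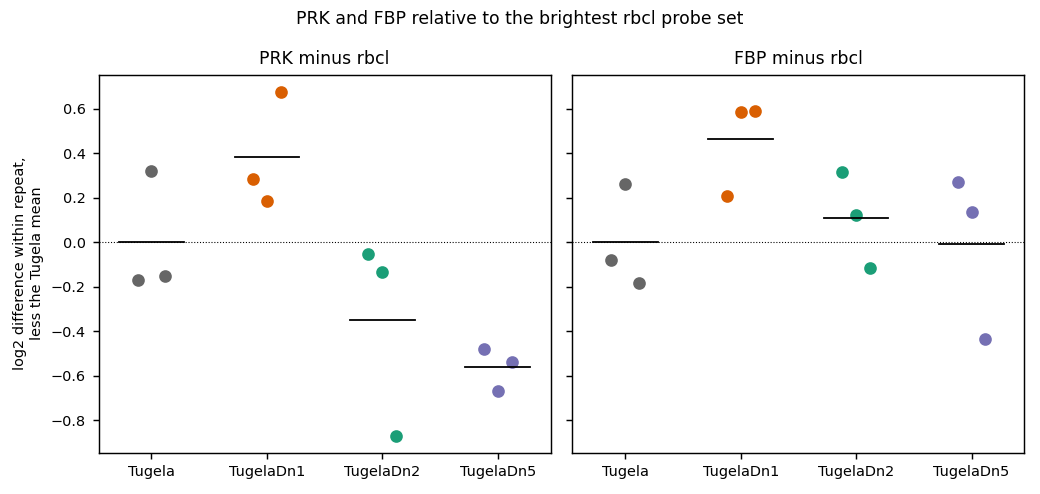
Log2 level of PRK (left) and of FBP, Ta.439.1.S1_at (right), minus that of the rbcl probe set Ta.24976.1.S1_x_at in the same repeat, less the mean of Tugela. Dots are the 3 repeats of a line, black bars their means and the dotted line is 0. PRK lay at a mean of 0.38 in TugelaDn1 and -0.56 in TugelaDn5.

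Over the 12 repeats, the levels of PRK and FBP (Ta.439.1.S1_at) had Pearson's r = 0.73 (permutation p = 0.0068, 0.020 after adjustment over 3 pairs) and Spearman's rho = 0.63 (permutation p = 0.033, adjusted 0.098). Without TugelaDn1 repeats 1 and 3, the samples farthest from the median of PRK, r was 0.40, so the relation rests on those samples. The permutations shuffled all 12 repeats without regard to line, so differences between line means enter these p-values. Within lines, as deviations from the line means, r was 0.31, which was not tested. PRK and rbcl (Ta.24976.1.S1_x_at) had r = 0.36 (permutation p = 0.25, adjusted 0.37) and rho = 0.25 (permutation p = 0.43, adjusted 0.65), and r = 0.20 without the same repeats. FBP and rbcl had r = 0.24 (permutation p = 0.45, adjusted 0.45) and rho = 0.13 (permutation p = 0.68, adjusted 0.68), and r = -0.07 without them. These values depended on the rbcl probe set. With TaAffx.128896.17.S1_s_at, r was 0.77 for PRK and 0.66 for FBP, and 0.32 and -0.08 within lines. With the remaining bright rbcl members, r lay between -0.35 and 0.50 for PRK and between -0.20 and 0.45 for FBP. None of these further pairs was tested.

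PRK had a pooled SD between repeats of 0.28, which was at percentile 85.9 of the decile of probe sets with the highest signal, whose median was 0.16. The 2 brightest rbcl probe sets had pooled SDs of 0.27 and 0.28, at percentiles 83.4 and 86.2 of the same decile. FBP (Ta.439.1.S1_at) had a pooled SD of 0.15, at percentile 41.9. The 2 arrays of TugelaDn5 repeat 3 differed by 0.05 for PRK, 0.13 for Ta.439.1.S1_at and 0.02 for both of the brightest rbcl probe sets, which was less than the pooled SD between repeats for each of these 4 probe sets. TaAffx.128414.15.S1_x_at had the largest pooled SD of the members, 1.21.

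**Figure D4:**
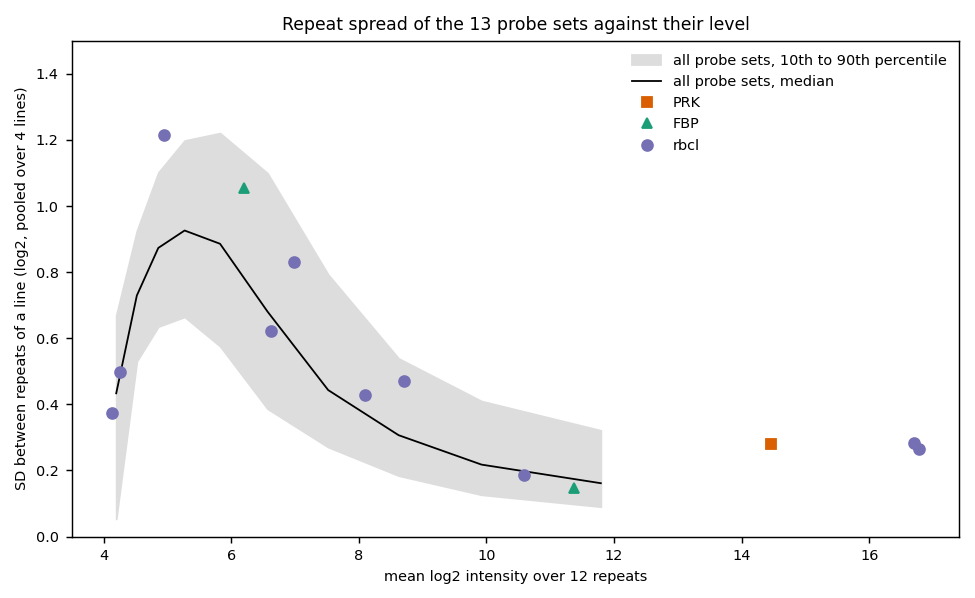
SD between the repeats of a line, pooled over the 4 lines (vertical axis, log2), against mean log2 intensity over 12 repeats (horizontal axis) for the 13 members. The line and the grey band are the median and the 10th to 90th percentile of all probe sets in deciles by level, placed at the median level of each decile. The PRK point, at an SD of 0.28, lies above the 0.16 median of the highest decile.

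The repeats of the members were also compared with those of the 855 probe sets that were above the median level and paired with 1 gene, as a description over 12 repeats. The probe sets with levels most like PRK were those of LOC543106 (r = 0.95), LOC542980 (r = 0.92) and LOC543256 (r = 0.91). Those most like FBP (Ta.439.1.S1_at) were lgul, a glyoxalase (r = 0.90), and both probe sets of PsbP, a protein of the oxygen-evolving complex of photosystem II (r = 0.90 and 0.84). Most like Ta.24976.1.S1_x_at was the next brightest rbcl probe set (r = 0.96). LOC100037561 (r = 0.95), PsbO, another protein of the oxygen-evolving complex (r = 0.95), and ha1, a proton-pumping ATPase (r = 0.92), followed.

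By name, the array held 32 probe sets of 4 Calvin cycle genes, since a further 18 rbcl probe sets and 1 of Pgk-1, a phosphoglycerate kinase, joined the 13 members. The annotation left 59906 probe sets without a gene, so probe sets of other Calvin cycle genes could be present without a name. None of the 32 was called in any of the 6 comparisons, in which 0.00817% to 2.07% of all probe sets were called. At these shares a count of 0 does not set the list apart from the rest of the array. The median log2 difference of the list from Tugela was 0.10 for TugelaDn1, -0.20 for TugelaDn2 and 0.01 for TugelaDn5. Over all probe sets tested these medians were 0, -0.01 and 0. Of the 32 probe sets, 28 were of rbcl and 14 had at least 1 repeat at the floor. The medians of the list thus describe mostly 1 gene, not the pathway. Pgk-1 had means of 14.97 ± 0.36 in Tugela, 14.93 ± 0.36 in TugelaDn1, 14.59 ± 0.31 in TugelaDn2 and 14.64 ± 0.14 in TugelaDn5 (SD, n = 3). Of the 18 other rbcl probe sets, 6 were bright, with the highest mean at 10.89, and 10 had at least 1 repeat at the floor.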

How the data were processed

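The values were taken from the deposited table of the series, which held 1 column for each of 13 single-colour Affymetrix wheat arrays hybridised with biotin-labelled cRNA. The values were intensities on a linear scale, 1 for each probe set, and the authors had scaled the arrays to an equal 2% trimmed mean. How probes were summarised into probe sets is not given in the sources used here. Of 61290 probe sets, 111 controls were left out, intensities under 16 were set to 16, log2 was taken, and the 2 arrays of TugelaDn5 repeat 3 were averaged. The floor understates the differences of dim probe sets.

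All 4 lines (3 repeats each) were fitted together with limma 3.58.1 in R 4.3.3 over 61179 probe sets (8 residual and 1.45 prior degrees of freedom), with empirical Bayes moderation and Benjamini-Hochberg adjustment within each comparison. A call was an adjusted p under 0.05. The labels name the repeats biological without saying what was separate. The p-values set a difference between line means against the spread between these repeats, whatever that spread holds. Array data have no read depth, and the number of arrays limits the precision. Correlations used 100000 permutations. The fit was also run on simulated data with normal noise and no floor, with changes planted in TugelaDn5 among bright probe sets only. That run is no support for the floored members or for the smaller differences reported here.

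Genes were named from a platform annotation, which paired 1273 of the probe sets with 1 gene and left 59906 unnamed, and from the RefSeq gene table of IWGSC CS RefSeq v2.1, of which no coordinates were used. All 13 members were named. The probe sets most like PRK, the brighter FBP and the brightest rbcl were the 3 with the highest Pearson's r, and Calvin cycle, leaf marker and seed storage lists were matched by symbol and synonym. The members and lists were chosen with earlier results of these data known. Alternatives were floors of 64, 128 and 1, only probe sets above the median level, quantile normalization, another variance model, the repeat number as a block, either array of TugelaDn5 repeat 3 alone, leaving out each repeat, and fits of only the groups compared.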

Additional observations from a re-analysis of the deposited data

How the results depend on the processing

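The count of members called was 0 in every comparison and remained 0 in most of the alternatives, with these exceptions. In TugelaDn1 against TugelaDn5 it was 2 with a floor of 64 (3.2% of all probe sets called), 1 with the highest floor (2.58%), 3 with only probe sets above the median level, which tests fewer probe sets (6.34%), and 3 with the other variance model (3.69%), and it ranged from 0 to 1 when each repeat was left out, being 1 without TugelaDn1 repeat 2 (1.47%). In TugelaDn1 against TugelaDn2 it was 1 with the other variance model (0.541%). In the F test it was 1 with only probe sets above the median level (5.78%) and 2 with the other variance model (4.29%). The cause of these changes was not tested. The differences of PRK and FBP relative to rbcl moved by less than the SD between repeats, pooled over the line and Tugela, but leaving out 1 repeat still moved some of them by much of their size. PRK minus rbcl ranged from 0.23 to 0.54 in TugelaDn1, -0.50 to -0.093 in TugelaDn2 and -0.65 to -0.40 in TugelaDn5. FBP minus rbcl ranged from 0.37 to 0.59 in TugelaDn1, 0.0051 to 0.24 in TugelaDn2 and -0.15 to 0.20 in TugelaDn5. The alternatives of the differences of PRK, Ta.439.1.S1_at and TaAffx.128896.17.S1_s_at between TugelaDn1 and the other resistant lines were added after seeing the data. The fit of only the groups compared was not run for the F test. Over all probe sets, the counts called and their range over alternatives were 5 (1 to 64) for TugelaDn1 against Tugela, 23 (8 to 254) for TugelaDn2 against Tugela, 1266 (725 to 2373) for TugelaDn5 against Tugela, 45 (9 to 331) for TugelaDn1 against TugelaDn2, 1158 (491 to 2255) for TugelaDn1 against TugelaDn5, 788 (454 to 1416) for TugelaDn2 against TugelaDn5 and 1077 (558 to 2622) for the F test.

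Small differences from Tugela changed sign. With quantile normalization, TugelaDn1 minus Tugela was -0.021 for Ta.24976.1.S1_x_at and -0.019 for TaAffx.128414.1.A1_x_at, and TugelaDn2 minus Tugela was -0.018 for TaAffx.128414.130.S1_at. With a floor of 64 and with the highest floor, TaAffx.128414.126.S1_at was -0.063 and -0.35 in TugelaDn2 and -0.022 and -0.35 in TugelaDn5. With the first array of TugelaDn5 repeat 3 alone TaAffx.128414.1.A1_x_at was -0.00045, and with the second alone TaAffx.128414.146.S1_at was -0.022. When each repeat was left out, the difference of Ta.24976.1.S1_x_at ranged from -0.17 to 0.20 in TugelaDn1, -0.24 to 0.11 in TugelaDn2 and -0.24 to 0.10 in TugelaDn5, and that of TaAffx.128414.1.A1_x_at from -0.17 to 0.19, -0.21 to 0.094 and -0.14 to 0.17. Ta.439.1.S1_at ranged from -0.051 to 0.12 in TugelaDn2 and -0.19 to 0.012 in TugelaDn5, TaAffx.106041.1.S1_at from -1.18 to 0.049 and -0.39 to 0.16, and Ta.3807.1.A1_at from -0.13 to 0.62 in TugelaDn1. TaAffx.128414.126.S1_at ranged from -1.27 to 0.097 in TugelaDn1, -0.68 to 0.69 in TugelaDn2 and -0.64 to 0.73 in TugelaDn5, TaAffx.128414.130.S1_at from -0.32 to 0.25 in TugelaDn2 and -0.18 to 0.41 in TugelaDn5, and TaAffx.128414.146.S1_at from -0.076 to 0.44 in TugelaDn5.

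The lines share repeat numbers, and 18 same-numbered pairs had correlations of their deviations from the line means between -0.11 and 0.14. Of the 12 repeats, 3 correlated best with a repeat of their own number. The labels do not say what same-numbered repeats shared, and with 3 repeats a line these correlations cannot settle it. With the repeat number as a block, 0 members were called in every comparison, PRK in TugelaDn1 against TugelaDn5 had a limma adjusted p of 0.13, and the counts over all probe sets were 2, 8, 862, 9, 768, 570 and 558 in the order given above.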
